A study of Mus musculus with 8 samples.

Results

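This report describes miR-21a, a microRNA (miRNA) that is cut as a 5p and a 3p arm from the Mir21a hairpin, in cardiomyocytes of mice with and without pressure overload. Its members were chosen by name, as mmu-miR-21a-5p and mmu-miR-21a-3p, which are 2 of the 697 mature miRNAs counted in each of 8 small RNA libraries. Both passed the minimum for testing, a mean above 100 counts over the libraries, as did 223 miRNAs in all. The libraries came from isolated cardiomyocytes of male mice that were 2 months old when they were anesthetized with ketamine and xylazine and operated. In the TAC group (4 mice) the transverse aorta was constricted, which loads the left ventricle with pressure, and the Sham group (4 mice) was the operated control. Cells were isolated by Langendorff perfusion, and the methods place the failing hearts 14 weeks after surgery, though 1 sentence calls the mice 14-week-old. Each library held RNA from part of the cardiomyocytes of a single mouse. The strain is not given in the sources used here. The comparison asks whether miR-21a differed in level between pressure-overloaded and control cardiomyocytes.

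A hairpin precursor is cut into a duplex of both arms, of which the guide strand is loaded into an Argonaute protein and the passenger strand is usually degraded. The guide pairs through its seed, bases 2 to 8, with messenger RNAs and represses them. miR-21 is known as a miRNA of growth and stress that is raised in whole hearts under pressure overload, with much of it in cardiac fibroblasts, and it targets inhibitors of growth signalling such as Spry1 and Pdcd4.

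The mature arms and their nearest annotated relatives are shown because the seeds set which messages each arm could pair with, and because near-identical relatives could share tags with it. Capitals mark the seed, and the sequences are those of RefSeq on GRCm38.p6, written 5′ to 3′.
miR-21a-5p: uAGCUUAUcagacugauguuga
miR-21a-3p: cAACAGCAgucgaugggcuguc
miR-21b: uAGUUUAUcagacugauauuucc
miR-21c: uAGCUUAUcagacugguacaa
The 5p arm lies at chr11:86584120-86584141 and the 3p arm at chr11:86584082-86584103, both on the minus strand, and each is 22 bases long. The hairpin spans 92 bases, chr11:86584067-86584158, with 16 bases between the arms. In the GENCODE annotation of the same build it lies inside exon 12 of Vmp1, at the untranslated 3′ end of that gene and on its strand. Vmp1 encodes a membrane protein of autophagy. The arms have unrelated seeds, AGCUUAU in the 5p arm and AACAGCA in the 3p arm. miR-21c, from chr8:128278188-128278208, has the same seed as the 5p arm, and miR-21b, from chr3:29636768-29636790, does not. Counted from the 5′ end, with the base of miR-21a-5p first, miR-21b differs by C4U, G18A, G21U and A22C, and miR-21c by A16G, G18A, U19C, U20A and G21A. miR-21b and miR-21c were not among the 697 counted miRNAs. How tags that fit more than 1 of these miRNAs were counted is not given in the sources used here. Of the 697 counted miRNAs, 593 could be matched by name to a RefSeq sequence, and apart from the arms themselves no matched miRNA had either seed. The nearest matched miRNA, aligned without a shift, shared 14 of the 22 bases with either arm.

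The depth of the libraries was 4005668 to 5392576 miRNA counts in Sham and 5507169 to 7798943 in TAC. The cardiomyocyte label was checked with miR-1a-3p, miR-133a-3p, miR-133b-3p, miR-208a-3p, miR-208b-3p and miR-499-5p, whose summed level ran from 164096 to 200916 CPM (the count over the miRNA total of its library, scaled to the same total for all) in Sham and from 198416 to 248898 CPM in TAC. Markers of other cells were also counted. Endothelial miRNAs summed to 49248 to 72051 CPM in Sham and 29274 to 34557 CPM in TAC, fibroblast and smooth muscle miRNAs to 43589 to 51440 and 38400 to 45641 CPM, leukocyte miRNAs to 2943 to 4932 and 2878 to 3375 CPM, and erythroid miRNAs to 418 to 1503 and 43.8 to 550.0 CPM. In such bulk samples, fewer cells of a type and less RNA per cell cannot be told apart. The library of TAC mouse 4 was highest in epithelial miRNAs, at 2669 CPM. The other TAC libraries held 1532 to 1794 CPM of them and the Sham libraries 1796 to 2155 CPM. It was also highest in pancreas acinar miRNAs, at 88.9 CPM against 15.3 to 27.2 CPM in the other TAC libraries and 14.1 to 33.0 CPM in Sham. Results on miR-21a that rest on it are given with and without it.

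miR-21a-5p was a well detected miRNA in these cardiomyocytes, and whether its difference between the groups passed the test depended on the scaling, the tool and single mice. Scaled by library totals its mean level was lower in TAC than in Sham, and scaled to the reference miRNAs of the study it was higher, and with all 8 libraries neither difference passed an adjusted p of 0.05 in edgeR. The library of TAC mouse 4 held the highest level on both scales.

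The counts of miR-21a-5p were 11018, 9592, 9276 and 5800 in the libraries of Sham mice 1 to 4. They were 5600, 10450, 8113 and 17714 in those of TAC mice 1 to 4. Divided by the miRNA total of each library, the levels were 2381, 1779, 1890 and 1448 CPM in Sham. In TAC they were 1017, 1340, 1280 and 2452 CPM. TAC mice 1 to 3 lay below all Sham mice and TAC mouse 4 lay above all of them, so that the groups overlapped, as they did for 69.1% of the tested miRNAs on this scale. The Sham mean was 1874 ± 386 CPM and the TAC mean 1522 ± 636 CPM (SD, n = 4 each). The difference of mean log2 CPM, -0.36, was within the spread between mice (p = 0.257, two-sided exact permutation). Without TAC mouse 4 the TAC mean was 1212 ± 172 CPM. The 95% Wilson intervals of the highest level of each group overlapped, at 2417 to 2489 CPM in TAC mouse 4 and 2337 to 2425 CPM in Sham mouse 1. Such intervals cover counting error alone, since tags are not marked as separate molecules.

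The study scaled its libraries to miR-126a-3p, an endothelial miRNA, and miR-19b-3p, a member of the miR-17 to miR-92 cluster. How the factor was formed is not given in the sources used here. Here 1 factor for the group, 0.537, was taken from the mean CPM of both, by which the CPM of the TAC libraries were divided (reference-scaled CPM). On this scale the Sham levels stay as they are, and miR-21a-5p had 1894, 2496, 2384 and 4568 in TAC mice 1 to 4. The TAC mean was 2836 ± 1184 (SD, n = 4), or 2258 ± 320 without TAC mouse 4. TAC mice 2, 3 and 4 now lay above all Sham mice, TAC mouse 3 by less than the counting error, and TAC mouse 1 lay among them. The groups overlapped for 44.8% of the tested miRNAs on this scale, and TAC lay above Sham for 54.7%. Permuting the mice exactly, with the reference factor derived again for every arrangement, gave p = 0.257. The smallest p that 4 mice against 4 allow is 0.0286.

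**Figure D1:**
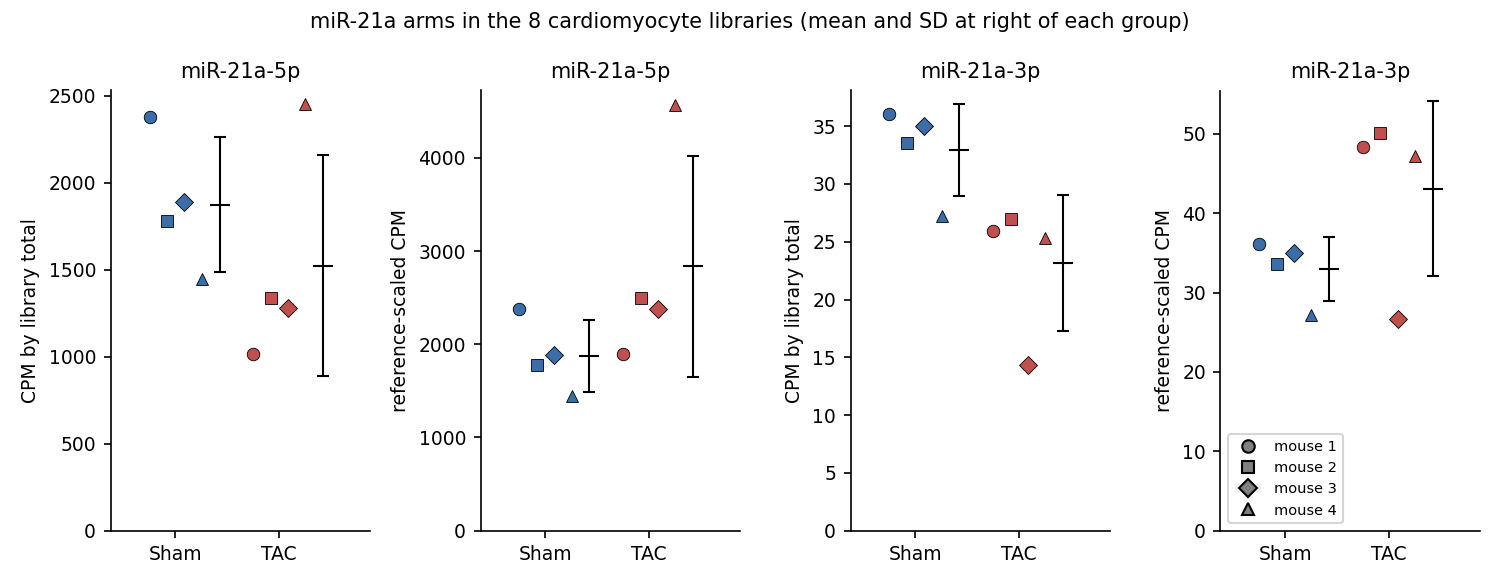
Levels of both miR-21a arms in each of the 8 libraries, as CPM by library total and as reference-scaled CPM, on axes that start at 0, with the group mean and SD beside the points. TAC mouse 4 is highest for miR-21a-5p on both scales (2452 CPM and 4568 reference-scaled CPM), and TAC mouse 3 is lowest for miR-21a-3p (14.4 CPM).

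With edgeR's quasi-likelihood test over the 223 miRNAs and the reference scaling, miR-21a-5p had a log2 fold change of 0.60 (adjusted p = 0.0723, standard error 0.27), or a fold change of 1.51 with a 95% interval from 1.003 to 2.28. It was not called at the fold change of the study, above 1.7, taken here with an adjusted p below 0.05, which 36.8% of the tested miRNAs passed as higher and 0.897% as lower. The study set a p-value below 0.05 and does not call it adjusted. The unadjusted p of miR-21a-5p was 0.0487 in edgeR, so here it missed the cut-off of the study by its fold change alone. At the adjusted p alone, 63.7% were higher. By library totals the log2 fold change was -0.30 (95% interval -0.89 to 0.29, adjusted p = 0.409 in edgeR), where 0.448% of the miRNAs were called higher and 10.3% lower and 20.6% were lower by the adjusted p alone. With TMM, which assumes that most miRNAs do not change, it was -0.089 (95% interval -0.65 to 0.48, adjusted p = 0.818 in edgeR), where 1.35% were called higher and 4.48% lower. With 1 reference factor for each library in place of 1 for the group, it was 0.50 (adjusted p = 0.167 in edgeR). The sign of the change thus turned with the scaling.

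The place of miR-21a-5p among the other miRNAs turned less. The median log2 fold change of all tested miRNAs was 0.61 with the reference scaling, -0.082 with TMM and -0.29 with library totals. miR-21a-5p differed from this median by -0.0083, -0.0073 and -0.0085 in the same order. With all 8 libraries it ranked 116 of 223 by log2 fold change under each of the 3 scalings, near the middle of these miRNAs. That place rested in part on TAC mouse 4. Without that mouse miR-21a-5p had 0.32, -0.38 and -0.63 in the same order, below medians of 0.68, -0.031 and -0.28. Library totals and the reference scaling differ by 1 factor for the TAC group, which by construction leaves the order between them nearly as it is. TMM factors, relative to the Sham mean, ran from 0.82 to 0.90 in TAC and from 0.93 to 1.03 in Sham. They thus varied little within a group, and the order had little room to move with TMM either.

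**Figure D2:**
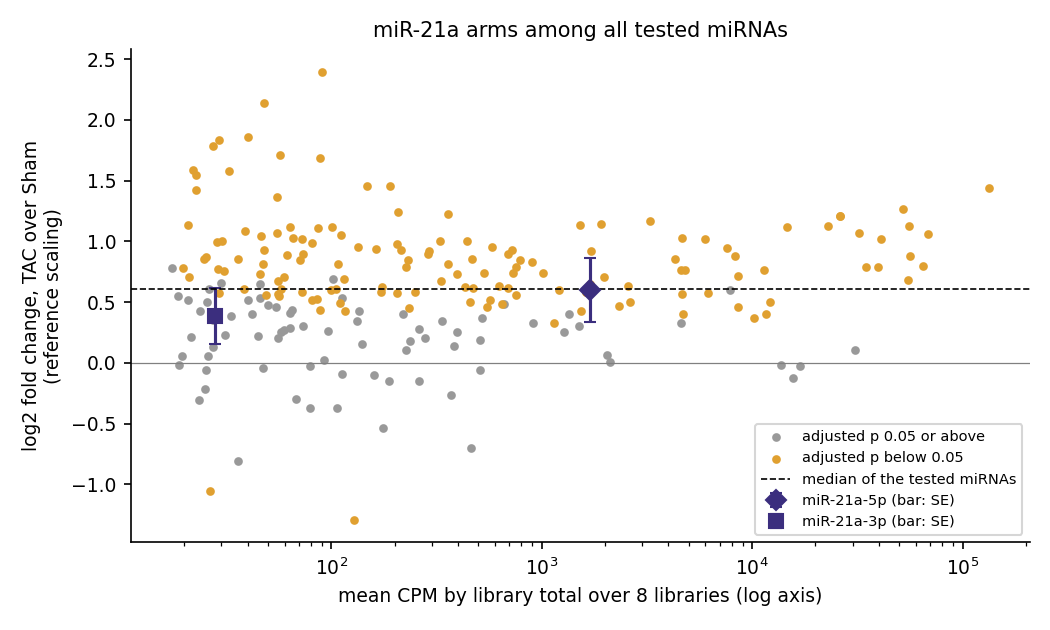
Log2 fold change (TAC over Sham, reference scaling) against mean CPM for the 223 tested miRNAs, one point each, with the standard error drawn for the miR-21a arms. miR-21a-5p sits on the dashed median line of 0.61 and miR-21a-3p below it, at 0.39.

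Single libraries moved the call. Without Sham mouse 1, which had the highest Sham level, the log2 fold change under the reference scaling was 0.85 (adjusted p = 0.0245 in edgeR) and passed both thresholds, as 47.5% of the miRNAs did as higher without that mouse (74.0% by the adjusted p alone). Without TAC mouse 1 it was 0.75 (adjusted p = 0.0345 in edgeR), under the fold change of 1.7. Without TAC mouse 4 it was 0.32 (95% interval -0.093 to 0.74, adjusted p = 0.148 in edgeR), and by library totals without that mouse it was -0.63 (adjusted p = 0.0443 in edgeR), short of a 1.7-fold change. The adjusted p also passed 0.05 with miR-19b-3p as the only reference (log2 fold change 0.70, adjusted p = 0.0361 in edgeR) and in DESeq2 with the reference scaling (0.60, adjusted p = 0.0408), both under the fold change of 1.7. The high level of TAC mouse 4 stands beside its epithelial and acinar miRNAs given above, and their part in it was not tested.

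**Figure D3:**
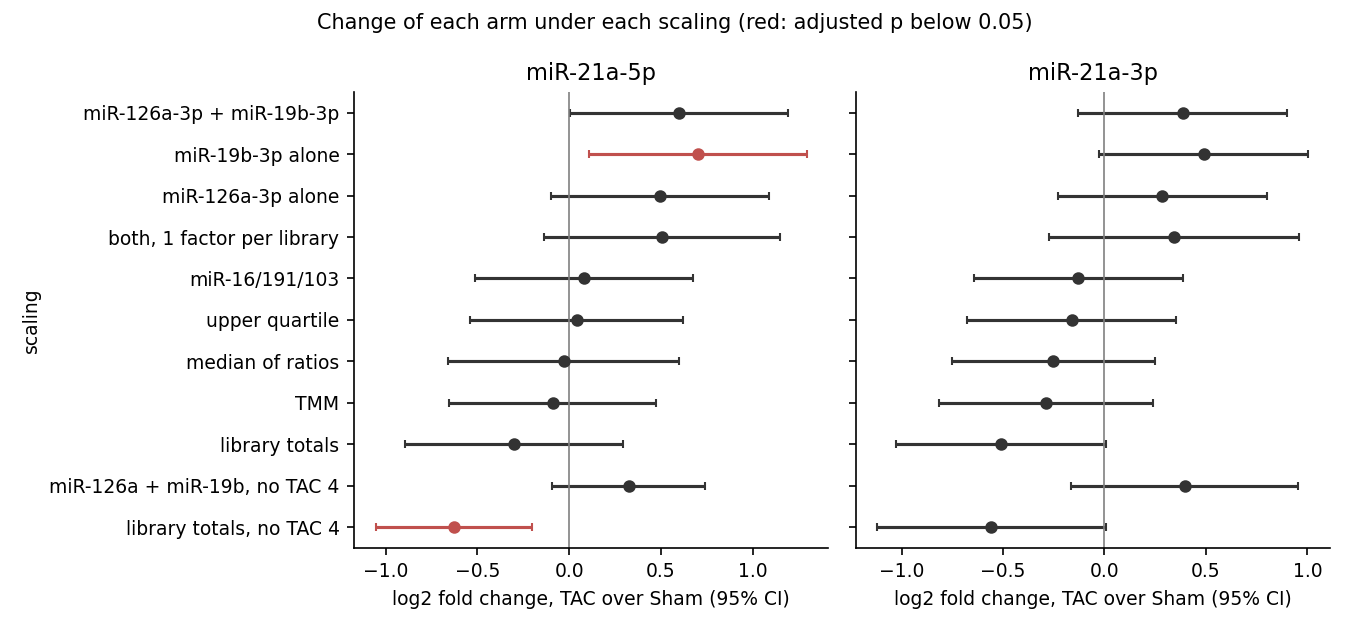
Log2 fold change of each arm (TAC over Sham) with its 95% interval from edgeR under 9 scalings, and under 2 of them without TAC mouse 4. Estimates for miR-21a-5p run from -0.63 to 0.70 and those for miR-21a-3p from -0.56 to 0.49, and those with an adjusted p below 0.05 are drawn in red.

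miR-21a-3p, the passenger strand, was rare, and it too was not called in either direction. Its counts were 167, 181, 172 and 109 in Sham mice 1 to 4 and 143, 210, 91 and 183 in TAC mice 1 to 4. By library totals the levels were 36.1, 33.6, 35.1 and 27.2 CPM in Sham. In TAC they were 26.0, 26.9, 14.4 and 25.3 CPM. Every TAC mouse lay below every Sham mouse, though Sham mouse 4 exceeded TAC mouse 2 by less than the counting error of either (95% Wilson intervals 22.6 to 32.8 and 23.5 to 30.8 CPM). The Sham mean was 33.0 ± 3.98 CPM and the TAC mean 23.1 ± 5.90 CPM (SD, n = 4 each), with a log2 difference of -0.55 (p = 0.0286, exact permutation, the smallest it can give). On this scale the TAC libraries lay below all Sham libraries in 27.4% of the tested miRNAs and above in 3.59%. In edgeR the library-total log2 fold change of miR-21a-3p was -0.51 (standard error 0.23, adjusted p = 0.129).

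The reference scaling put miR-21a-3p at 48.4, 50.2, 26.7 and 47.2 in TAC mice 1 to 4, with a mean of 43.1 ± 10.99 (SD, n = 4). TAC mice 1, 2 and 4 lay above all Sham mice. TAC mouse 3 lay below them, at 26.7 against 27.2 in Sham mouse 4, by less than the counting error. The log2 fold change was 0.39 (standard error 0.23, 95% interval -0.13 to 0.90, adjusted p = 0.162 in edgeR). It ranked 164 of 223, 0.22 under the median of the tested miRNAs. Without TAC mouse 3 it was 0.54 (adjusted p = 0.0366 in edgeR), under the fold change of 1.7. With TMM the log2 fold change was -0.29 (adjusted p = 0.423 in edgeR).

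By mean CPM over the 8 libraries, miR-21a-5p ranked 47 of the 223 tested miRNAs and miR-21a-3p ranked 197, with 1698 and 28.1 CPM. The rank of miR-21a-5p within a library ran from 43 to 52 in Sham mice and from 39 to 56 in TAC mice. CPM count tags per mature miRNA, and unequal ligation of small RNAs during library preparation is not corrected, so the order is one of tags. Next above miR-21a-5p stood miR-145a-3p, from a smooth muscle hairpin, at 1716 CPM, higher than it in 5 libraries and lower in 3. Next below stood miR-16-5p at 1691 CPM, which was higher in 5 libraries and lower in 3. The neighbours of miR-21a-3p were miR-671-3p at 28.7 CPM, higher in 4 libraries and lower in 4, and miR-409-5p at 27.5 CPM, higher in 3 and lower in 5. No neighbour lay above or below its arm in all libraries.

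The ratio of the arms is free of any scaling, since both are counted in the same library, and it varied more among TAC than among Sham mice. miR-21a-5p exceeded miR-21a-3p by a factor of 66.0, 52.99, 53.9 and 53.2 in Sham mice 1 to 4. In TAC mice 1 to 4 the factor was 39.2, 49.8, 89.2 and 96.8. TAC mice 1 and 2 lay below all Sham mice and TAC mice 3 and 4 above all of them, so that the TAC group surrounded the Sham group. For TAC mouse 2 the step was within the counting error, as given with the shares below. The mean log2 ratio (0.5 added to each count) was 5.81 ± 0.15 for Sham and 5.996 ± 0.64 for TAC (SD, n = 4 each). TAC exceeded Sham by 0.19, which did not pass 0.05 (limma over the 111 miRNA names with a mean of at least 10 counts in both arms, 95% interval -0.32 to 0.69, adjusted p = 0.709). An exact permutation test gave p = 0.629. The groups did not overlap for 12.6% of the names. In the same fit 8.11% of the names were called, 3 higher and 6 lower in TAC. Without TAC mouse 4 the difference was -0.013.

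Written as a share, the 3p arm took 1.49%, 1.85%, 1.82% and 1.84% of the miR-21a tags in Sham mice 1 to 4. It took 2.49%, 1.97%, 1.11% and 1.02% in TAC mice 1 to 4. The 95% Wilson interval of TAC mouse 1, 2.12% to 2.93%, lay clear of those of TAC mouse 3, 0.904% to 1.36%, and TAC mouse 4, 0.885% to 1.18%, so that counting error did not span these mice. The interval of TAC mouse 2, 1.72% to 2.25%, overlapped those of all Sham mice. That of TAC mouse 1 overlapped Sham mouse 4 (1.53% to 2.22%), and that of TAC mouse 3 overlapped Sham mouse 1 (1.28% to 1.74%). The arms moved apart in different ways. In TAC mouse 3 the 3p arm was low, 0.65 under the TAC mean of log2 CPM, while its 5p arm was 0.17 under. In TAC mouse 4 the 5p arm was high, 0.77 above the TAC mean, while its 3p arm was 0.17 above.

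The SD of the log2 arm ratio in TAC was 4.15 times that in Sham. This was chosen for description after the values were seen and carries no test. The fold ranked 3 of the 111 names, whose median was 0.954, and it came from both sides, since the Sham SD of miR-21a ranked 105 from the highest and its TAC SD 15. miR-21a was the only 1 of the 111 names with TAC mice 1 and 2 below and TAC mice 3 and 4 above every Sham mouse. That split of the mice was read from miR-21a itself, so its rarity carries no weight. Names whose TAC mice surround Sham in another split were not counted. The median departure of the names from their Sham mean was -0.12, -0.080, -0.15 and -0.058 in TAC mice 1 to 4, against -0.52, -0.18, 0.66 and 0.78 for miR-21a. Between 23 and 79 of the 111 names departed further than miR-21a in a given TAC library.

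**Figure D4:**
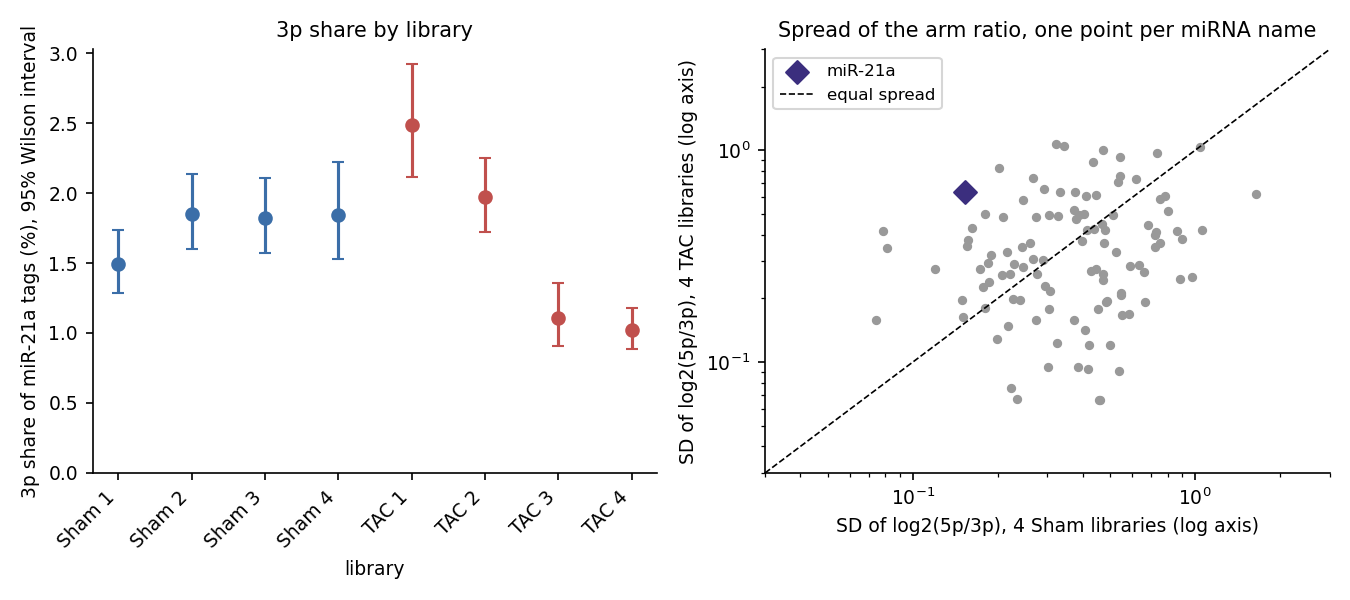
Left, the share of the 3p arm in the miR-21a tags of each library with its 95% Wilson interval; right, the SD of log2(5p/3p) over the 4 TAC libraries against that over the 4 Sham libraries for 111 miRNA names, on log axes. The shares run from 1.02% in TAC mouse 4 to 2.49% in TAC mouse 1, and miR-21a lies above the line of equal spread with SDs of 0.15 in Sham and 0.64 in TAC.

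The miRNAs of a cell type counted in the same library give another measure that no scaling moves. Against the summed cardiomyocyte miRNAs, miR-21a-5p stood at a log2 ratio of -6.40, -6.59, -6.44 and -6.99 in Sham mice 1 to 4. In TAC mice 1 to 4 the ratio was -7.61, -7.40, -7.49 and -6.67. TAC mice 1 to 3 lay below all Sham mice and TAC mouse 4 lay among them. The mean was lower in TAC by a log2 difference of -0.68, from -6.61 ± 0.27 to -7.29 ± 0.42 (SD, n = 4 each), with p = 0.0571 by exact permutation and an adjusted p of 0.286 over 5 lists. Without TAC mouse 4 the log2 difference was -0.89. miR-1a-3p, the most abundant miRNA of these libraries and a muscle miRNA, carries most of that sum, and its log2 fold change was 1.44 with the reference scaling and 0.74 with TMM.

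Against the other lists the groups overlapped as well. The log2 ratio to fibroblast and smooth muscle miRNAs was -4.69 ± 0.35 for Sham and -4.89 ± 0.51 for TAC (SD, n = 4 each, exact permutation p = 0.457). That to leukocyte miRNAs was -1.10 ± 0.53 and -1.09 ± 0.60 (exact permutation p = 0.943). That to endothelial miRNAs was -5.01 ± 0.43 and -4.51 ± 0.65 (exact permutation p = 0.286), and that to erythroid miRNAs was 1.08 ± 0.99 and 2.68 ± 1.39 (exact permutation p = 0.114). The adjusted p over the 5 lists ran from 0.286 to 0.943. Without TAC mouse 4 the log2 difference went from -0.21 to -0.43 for the fibroblast and smooth muscle list, from 0.010 to -0.27 for leukocytes, from 0.50 to 0.19 for the endothelial list and from 1.60 to 1.75 for the erythroid list. The endothelial list holds only miR-126a-3p and miR-126a-5p, so its ratio is not independent of the reference scaling, which also uses miR-126a-3p. Sham mouse 1 and TAC mouse 4 had the highest ratio of their group to each of these lists apart from the erythroid list in TAC, where TAC mouse 1 was highest at 4.54.

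**Figure D5:**
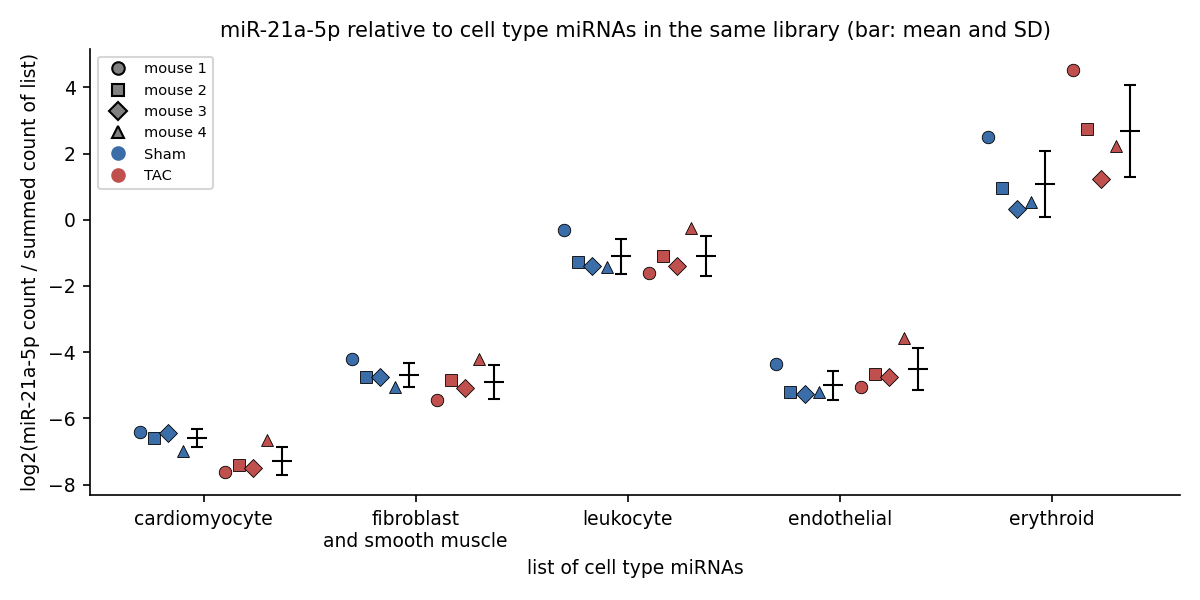
Log2 ratio of the miR-21a-5p count to the summed count of each list of cell type miRNAs in the same library, with the group mean and SD beside the points. The groups overlap in each of the 5 lists, and the lowest p is that of the cardiomyocyte list, where the means are -6.61 in Sham and -7.29 in TAC.

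The miRNAs whose levels followed miR-21a-5p most closely from library to library were found by the root mean square difference of their centred log2 counts, over 8 libraries and 222 other tested miRNAs. The difference was 0.20 for miR-203-3p, an epithelial miRNA, 0.24 for miR-100-5p, 0.25 for miR-195a-5p of the miR-15 family, 0.25 for miR-146b-5p and 0.26 for miR-199a-3p, a miRNA of fibroblasts and smooth muscle. The counts of miR-203-3p were 235, 267, 263 and 175 in Sham and 154, 248, 193 and 358 in TAC. Its log2 fold change was 0.40 (adjusted p = 0.116 in edgeR), and its count, like that of miR-21a-5p, was highest in TAC mouse 4. Divided by the library total, miR-203-3p was higher in Sham mice 1 and 3 than in TAC mouse 4, unlike miR-21a-5p. The other tested epithelial miRNAs did not rank as near. In likeness, miR-192-5p ranked 26 and miR-194-5p 43 of the 222. Further down, miR-200a-3p, miR-141-3p, miR-200c-3p, miR-200b-3p and miR-205-5p ranked 122, 175, 199, 202 and 214. Without TAC mouse 4 miR-203-3p ranked 4 in likeness at 0.17, miR-195a-5p 13, miR-100-5p 20, miR-199a-3p 27 and miR-146b-5p 35. The order of likeness thus rested in part on that library.

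Other miRNAs known from cardiac fibrosis and pressure overload were set beside miR-21a as a list of 26, of which 24 were tested. With the reference scaling 10 of them were called higher and 0 lower, against 36.8% and 0.897% of all tested miRNAs, and their median log2 fold change was 0.62 against 0.61. At an adjusted p below 0.05, 20 were higher and 0 lower, against 63.7% and 0.897% of all tested miRNAs. With TMM 0 were called higher and 1 lower, against 1.35% and 4.48% of all tested miRNAs. On that scale 3 were higher and 2 lower at an adjusted p below 0.05, against 4.93% and 8.52% of all tested miRNAs. Their TMM median was -0.066 against -0.082. The 10 were miR-1a-3p, miR-133a-3p, miR-29b-3p, miR-24-3p, miR-155-5p, miR-125b-5p, miR-208b-3p, miR-499-5p, miR-27b-3p and miR-22-3p.

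Of these, miR-208b-3p, which lies in an intron of the slow myosin gene Myh7, had the largest log2 fold change. Its counts were 169, 384, 154 and 104 in Sham and 431, 309, 426 and 760 in TAC, for which edgeR gave 1.71 with a standard error of 0.37 (adjusted p = 0.00327) and, with TMM, 1.02 (adjusted p = 0.0800). The difference of miR-21a-5p from it was not tested. Among the miR-29 family, which represses collagen and other matrix genes, miR-29b-3p was called at 0.92 (adjusted p = 0.00105 in edgeR), while miR-29a-3p at 0.50 and miR-29c-3p at 0.63 passed the adjusted p alone. miR-133a-3p and miR-30c-5p, which repress connective tissue growth factor, had 0.79 and 0.46. All 5 were between -0.23 and 0.23 with TMM. The miRNAs of the Dnm3 antisense transcript, which are rich in fibroblasts, had 0.57 for miR-199a-5p, 0.58 for miR-199a-3p and 0.60 for miR-214-3p, close to miR-21a-5p, with adjusted p of 0.0326, 0.0271 and 0.0398 in edgeR. With TMM they had -0.13, -0.11 and -0.084 and did not pass (adjusted p of 0.670, 0.688 and 0.796), and their groups overlapped on both CPM scales. miR-199a-3p has the same sequence as miR-199b-3p, so their counts are uncertain. miR-199b-5p had -0.38 and was the 1 called lower with TMM, at -1.07 (adjusted p = 0.00740 in edgeR). miR-155-5p, a leukocyte miRNA, was called higher at 1.06 and had 0.36 with TMM (adjusted p = 0.118 in edgeR). It was the 1 called higher of the 5 tested miRNAs of the leukocyte list, against 36.8% of all tested miRNAs. At an adjusted p below 0.05, 2 of the 5 were higher, against 63.7%. miR-34a-5p, a miRNA induced by p53, had 0.51 (adjusted p = 0.179 in edgeR). miR-132-3p and miR-212-3p, which promote hypertrophy, had means under the minimum and were not tested, with 46 to 109 and 5 to 24 counts in a library.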

How the data were processed

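Small RNA libraries of cardiomyocytes from 8 mice, 4 Sham and 4 TAC, were analysed, made from total RNA. The authors cleaned their reads to tags and deposited unnormalized counts per mature mouse miRNA; the miRNA aligner and miRNA reference are not given in the sources used here. The submitters' processing notes name mm10 and StringTie 1.3.1 without a role. The description field of each sample gave its group. No 2 libraries held identical counts, and each pair differed by more than sampling noise.

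R 4.3.3 with edgeR 4.0.16 (quasi-likelihood test, group as the only term), limma 3.58.1 and DESeq2 1.42.0, and Python 3.11.15 were used. The 223 miRNAs with a mean above 100 counts were tested, with Benjamini-Hochberg adjustment over all of them. The miRNA total of a library, times the reference factor for TAC, was its effective size. Standard errors were obtained from edgeR's F statistic and the log2 fold change. Arm ratios were tested with limma (trend on mean counts), and single values by two-sided exact permutation over 70 arrangements. The test scripts were tested on simulated data. At 4005668 to 7798943 counts per library the counting error of miR-21a-5p is small, and that of miR-21a-3p, with 91 to 210 counts, is not.

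The members and lists were chosen with earlier results of these data known. Named were both arms, seed relatives, neighbours in level, the 5 nearest profiles, the reference miRNAs and members of the fixed lists. Alternatives were other scalings, filters, tools, pseudocounts, a replicate block and each library left out; leaving out each library under library totals was added after the data had been seen. The methods speak of 4 pairs of mice, without saying what paired them or which libraries belong together. Same-numbered Sham and TAC libraries did not consistently deviate together (r of 0.17, -0.37, 0.31 and -0.22 over the tested miRNAs), so the numbers were not taken to pair mice. Such correlations cannot show that the mice were not paired.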

Additional observations from a re-analysis of the deposited data

Results flagged for a closer look

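Dixon's ratio, the gap of the outermost library over the range of its group of 4, was above its critical value of 0.829 in 4 of 16 groups of values, where chance flags about 1 group in 20. The groups share libraries and counts, so they are not independent. The level of miR-21a-3p in TAC mouse 3 had a ratio of 0.873, with 14.4 CPM against 25.3 to 26.9 CPM in the other TAC mice. The arm ratio of Sham mouse 1 had 0.921, with a 5p count 66.0 times the 3p count against 52.99 to 53.9 times in the other Sham mice. The log2 ratio of miR-21a-5p to leukocyte miRNAs in Sham mouse 1 had 0.875, at -0.31 against -1.43 to -1.29 in the other Sham mice. Its log2 ratio to endothelial miRNAs in the same library had 0.943, at -4.37 against -5.25 to -5.20. Sham mouse 1 also had the lowest summed erythroid, leukocyte and endothelial miRNAs of its group, at 418, 2943 and 49248 CPM, and their part in these ratios was not tested.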

How the results depend on the processing

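The change of miR-21a-5p, 0.60 on the log2 scale with the reference scaling, turned to -0.089 with TMM, -0.30 with library totals, -0.030 with median-of-ratios factors, -0.030 in DESeq2 with its own size factors, -0.15 with a replicate block and TMM, and -0.36 in the exact test by library totals. It passed an adjusted p of 0.05 with miR-19b-3p alone (0.70) and in DESeq2 with the reference scaling (0.60). The change of miR-21a-3p, 0.39, turned to -0.29 with TMM, -0.51 with library totals, -0.25 with median-of-ratios factors, -0.16 with upper-quartile factors, -0.13 with miR-16-5p, miR-191-5p and miR-103-3p as reference, -0.25 in DESeq2 with its own size factors, -0.33 with a replicate block and TMM, and -0.55 in the exact test by library totals. The reference scaling adds nearly the same amount to each log2 fold change over library totals by construction. With a replicate block under the reference scaling miR-21a-5p had 0.53 (adjusted p = 0.166 in edgeR), miR-21a-3p had 0.36 (adjusted p = 0.255) and the arm ratio 0.19 (adjusted p = 0.746 in limma). Same-numbered mice did not consistently deviate together, so the block is given only here. It changed no call of either arm or of their ratio.

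With each library left out, miR-21a-5p ran from 0.32 to 0.85 with the reference scaling, from -0.38 to 0.10 with TMM and from -0.63 to -0.15 with library totals, and miR-21a-3p from 0.27 to 0.55, from -0.40 to -0.10 and from -0.59 to -0.34. The range under library totals was added after the data had been seen. The arm ratio change ran from -0.013 (without TAC mouse 4) to 0.42. The ratio of miR-21a-5p to fibroblast and smooth muscle miRNAs, -0.21, turned to 0.045 with the mean of the members' log2 counts and ran from -0.43 to -0.028 with libraries left out. That to leukocyte miRNAs, 0.010, ran from -0.27 to 0.28 and was negative without Sham mouse 2, 3 or 4 or TAC mouse 4, that to cardiomyocyte miRNAs from -0.89 to -0.58, that to endothelial miRNAs from 0.19 to 0.71 and that to erythroid miRNAs from 0.98 to 2.09. With a library left out, the lowest exact permutation p of these ratios was 0.0571.

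The calls over all tested miRNAs, 82 higher and 2 lower, became 3 and 10 with TMM, 1 and 23 with library totals, 4 and 7 with median-of-ratios factors, 6 and 5 with upper-quartile factors, 5 and 5 with miR-16-5p, miR-191-5p and miR-103-3p, 99 and 1 with miR-19b-3p alone, 5 and 9 in DESeq2 with its own size factors, 82 and 1 in edgeR's robust fit, and 1 and 8 with a replicate block and TMM. They were 127 and 2 with no filter on counts, 43 higher above a fold change of 2 and 142 higher with none required. With each library left out they ran from 59 to 106 and from 1 to 2 with the reference scaling, from 1 to 4 and from 4 to 9 with TMM, and from 1 to 2 and from 16 to 26 with library totals. The cause of these shifts beyond the scaling factor itself was not tested.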
